A study of Drosophila melanogaster with 4 samples.

Results

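Periodate oxidation was compared with no oxidation in small RNA libraries from heads of 30-day-old male flies, at the level of single read sequences. A sequence was included when it had at least 100 reads in the oxidized and the untreated 30-day library together. Of the 5550 distinct sequences in the series, 929 met this rule, and they held 99.8% of the reads of each 30-day library. The flies were labelled wild-type with genotype 5905 and were raised at 25 °C. RNA was prepared from heads and was either left untreated or taken through oxidation and β-elimination, with 1 library for each treatment at 30 days and 1 for each at 3 days. How many heads went into a library is not given in the labels. Both ages come from the titles, which the age characteristic contradicts for the untreated 30-day library and the oxidized 3-day library. With 1 library per group there is no replicate check on any difference, so each comparison is between libraries and no p-value is given. Intervals are exact Clopper-Pearson 95% intervals unless stated and cover counting error only, not variation between libraries. Reads carry no molecular identifiers, so copies of 1 molecule cannot be told apart and the intervals may be too narrow.

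A miRNA is cut from a hairpin as a duplex, and one arm of the duplex, the 5p or the 3p arm, is usually retained by an Argonaute protein. In flies most miRNAs are loaded into AGO1, while small interfering RNAs and some miRNA arms are loaded into AGO2, whose cargo is 2′-O-methylated at its last ribose by Hen1. Periodate oxidizes the vicinal hydroxyls of an unmodified 3′ end, and β-elimination then removes the terminal nucleoside and leaves an end that cannot be ligated. A methylated end resists this treatment. Reads of one arm that differ at an end are called isoforms. The 5′ end sets the seed (bases 2 to 8), through which targets are recognised, and the 3′ end carries the group that oxidation acts on.

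The sequences fell into 170 arms, of which 134 were named and 36 were not. The tables hold no names, so names rest on remembered catalogue sequences and on pairing with such an arm, and they were not checked against a reference sequence. Within an arm, the most abundant form in the untreated library is called the reference form. The reference forms of the arms described most are shown with the seed in capitals, as read from the tables and grouped where seeds are shared.

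miR-263a-5p, 24 nt: aATGGCACtggaagaattcacggg
miR-125-5p, 22 nt: tCCCTGAGaccctaacttgtga
let-7-5p, 21 nt: tGAGGTAGtaggttgtatagt
miR-100-5p, 20 nt: aACCCGTAaatccgaacttg
bantam-3p, 23 nt: tGAGATCAttttgaaagctgatt
miR-284-5p, 26 nt: cCTGGAATtaagttgactgtgtagcc
miR-33-5p, 21 nt: gTGCATTGtagtcgcattgtc
miR-34-5p, 18 nt: tGGCAGTGtggttagctg
miR-277-3p, 22 nt: tAAATGCActatctggtacgac
miR-317-3p, 21 nt: tGAACACAgctggtggtatcc
miR-995-3p, 21 nt: tAGCACCAcatgattcggctt
miR-998-3p, 21 nt: tAGCACCAtgagattcagctc
miR-285-3p, 21 nt: tAGCACCAttcgaaatcagtg
miR-9a-5p, 23 nt: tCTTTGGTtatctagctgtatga
miR-9b-5p, 22 nt: tCTTTGGTgattttagctgtat
miR-9c-5p, 22 nt: tCTTTGGTattctagctgtaga
miR-306-5p, 21 nt: tCAGGTACttagtgactctca
miR-275-3p, 22 nt: tCAGGTACctgaagtagcgcgc

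Loci were looked up by gene name in the BDGP6 annotation. The miR-263a hairpin, annotated as mir-bft, lies on the minus strand at chr2L:11953410-11953503 within an exon of the noncoding gene lncRNA:CR43314. The miR-100, let-7 and miR-125 hairpins lie on the plus strand at chr2L:18471434-18471533, chr2L:18472034-18472111 and chr2L:18472315-18472424, all in exons of lncRNA:let7C. The bantam hairpin is at chr3L:642208-642288 on the plus strand, in an exon of lncRNA:CR43334. The miR-277 and miR-34 hairpins are at chr3R:10100022-10100121 and chr3R:10100936-10101034 in exons of lncRNA:CR43459, and miR-317 is at chr3R:10091126-10091217 outside any other gene of its strand. The miR-33 hairpin sits in an intron of SREBP at chr3L:19797961-19798059, and miR-284 lies inside an annotated exon of Octbeta2R on the minus strand at chr3R:12551515-12551614. The miR-306 hairpin is in an intron of grp at chr2L:16698404-16698488.

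Of the 929 sequences, 284 (30.6%) were higher after oxidation in RPM (a sequence's share of its library's reads, scaled to 1000000), 455 (49.0%) were lower, and 190 lay within 2-fold. Counts of higher and lower sequences are here always counts past a size threshold of 2-fold. The median log2 ratio of oxidized over untreated was -0.89, with quartiles of -2.64 and 1.62. All 929 sequences had a read in the untreated library and 928 had one in the oxidized library. The exception was a 19-nt form of miR-957-3p starting 3 nt late, with 111 untreated reads and none after oxidation, which is at least 25.8-fold lower when the absent form is set to 3 counts. RPM values are relative, and miR-263a-5p alone filled a large part of the oxidized library. With that arm out of both totals every log2 ratio was 0.99 higher, and the split became 364 higher (39.2%) and 338 lower (36.4%). The ratios below are on library totals and should be read against the median of all sequences. Differences between forms of 1 arm do not depend on the scaling.

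The rule also admits scarce sequences that passed it through the oxidized library. Among the 208 sequences with under 100 untreated reads, 167 were higher and 14 lower. The 14 sequences with 101 to 104 reads together, just inside the limit, had a median log2 ratio of 1.08, and the 20 with 95 to 97 reads, just outside, had one of 0.58. With at least 100 reads required in the untreated library alone, 721 sequences remained, of which 117 (16.2%) were higher and 441 (61.2%) lower, with a median log2 ratio of -1.74. The main counts are therefore also given under this rule.

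By length class the ratio was lower for longer sequences up to 24 nt. By single length the decline was not steady, with medians of -1.20, -0.65 and -1.19 at 19, 20 and 21 nt. With at least 500 reads together, the 23-nt median lay closer to that of all sequences, as given further below. Sequences of 16 to 18 nt, shorter than a typical miRNA, had a median log2 ratio of 0.59, against -0.83 at 19 to 20 nt, -1.28 at 21 to 22 nt and -2.11 at 23 to 24 nt. Of the 181 sequences of 16 to 18 nt, 76 (42.0%) were higher and 50 (27.6%) lower. Of the 146 sequences of 23 to 24 nt, 34 (23.3%) were higher and 94 (64.4%) lower. The 22 sequences of 25 to 27 nt were divided, with 8 higher and 13 lower. Among sequences with at least 100 untreated reads, the 16 to 18 nt class had 23 of 111 higher and 46 lower, and its median was -0.35, which is 1.39 above the median of all 721. The 23 to 24 nt class then had a median of -2.51, which is 0.77 below it.

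**Figure D1:**
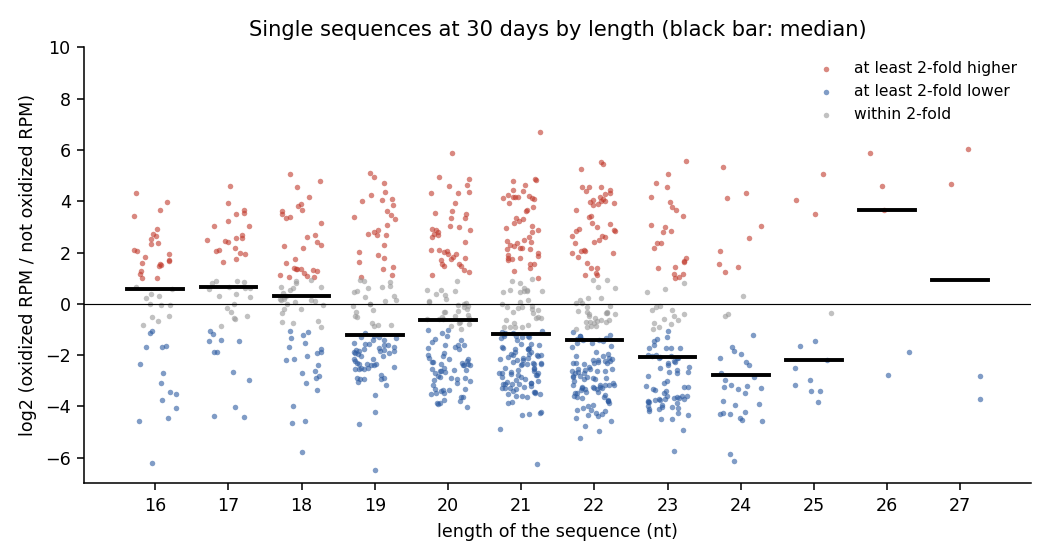
Log2 ratio of oxidized over untreated RPM (vertical axis) against length in nt (horizontal axis) for the 929 sequences at 30 days, 1 point each, coloured by the 2-fold size threshold, with a black bar at the median of each length. The medians go from 0.59 at 16 nt to -2.76 at 24 nt, and every length from 16 to 25 nt holds sequences on both sides of 0.

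The first base divided the sequences more than the last. Sequences starting with T had a median log2 ratio of -1.94, with 275 of 431 (63.8%) lower and 72 (16.7%) higher. Sequences starting with C had a median of 1.02, with 101 of 200 (50.5%) higher and 55 lower, and those starting with G one of 0.91, with 49 of 101 higher and 31 lower. The 197 sequences starting with A, at a median of -0.75, were close to the whole set. Isoforms of 1 arm mostly share their first base, so these are not independent sequences. Over the 169 reference forms alone, 1 per arm, 64 of 83 starting with T were lower and 9 higher, and 18 of 36 starting with C were higher and 10 lower. By last base the medians lay between -1.10 (A) and -0.54 (G), with C at -0.92 and T at -0.85. Under the rule of 100 untreated reads the excess of higher sequences was gone for C, with 43 of 130 higher and 49 lower (median -0.32), and for G, with 14 of 64 higher and 31 lower (median -0.88). For T 32 of 374 were higher and 271 lower, and for A 28 of 153 were higher and 90 lower. The first-base medians kept their order relative to all sequences, from 1.42 above for C and 0.86 above for G to 0.17 above for A and 0.44 below for T.

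Counted in reads, T-starting molecules went from 82.6% of the untreated library to 23.1% of the oxidized one, and A-starting molecules from 3.90% to 53.3%. The A share was mostly miR-263a-5p: without this arm it was 2.40% and 5.72%. Of what remained without miR-263a-5p, T-starting reads went from 83.9% to 46.7% and C-starting reads from 11.1% to 34.4%. In all reads the C share was 10.9% untreated and 17.1% oxidized. A large part of the oxidized C share was miR-284-5p, whose reference form starts with C. That arm had 6442 RPM untreated and 91184 RPM oxidized.

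The read-length distribution was reshaped by a few isoforms. Reads of 24 nt took 3.82% of the untreated library (3.81% to 3.83%) and 42.0% of the oxidized one. miR-317-3p led the 24-nt reads without oxidation, with 53.2% of them, and miR-263a-5p held 99.3% of them after it. Reads of 20 nt went from 19.8% to 3.83%, and their leading arm in both libraries was miR-14-3p. Reads of 25 and 26 nt went from 0.346% to 4.69% and from 0.362% to 4.02%, and miR-284-5p held 99.7% of the 26-nt reads after oxidation. Leaving miR-263a-5p out of both libraries turned the 24-nt difference round, to 2.82% without and 0.630% with oxidation, while the 20-nt and 25-nt differences kept their direction, at 20.1% against 7.71% and 0.350% against 9.42%. The shares at 21 nt were then 21.7% and 27.2%, at 22 nt 29.6% and 30.6%, and at 23 nt 22.6% and 12.4%.

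**Figure D2:**
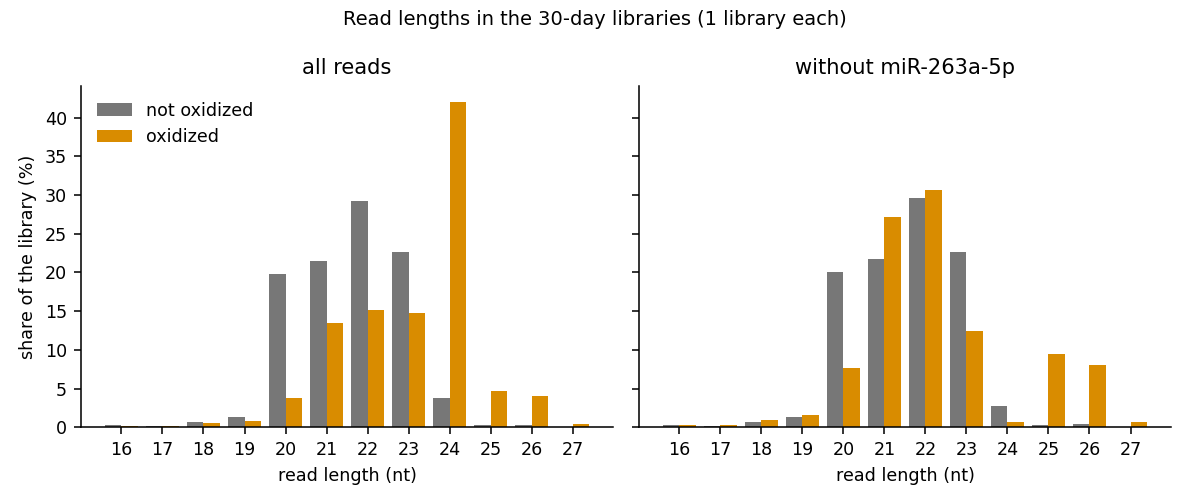
Share of reads in percent (vertical axis) by read length in nt (horizontal axis) in the untreated (grey) and oxidized (orange) 30-day libraries, for all reads on the left and without miR-263a-5p on the right, with 1 library per bar. The 24-nt bar of the oxidized library stands at 42.0% with all reads and at 0.630% without miR-263a-5p.

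Within arms, forms shortened at the 3′ end stood above their reference form more often than lengthened ones. Each form that begins at the same base as the reference form of its arm was compared with that reference form, by the difference of their log2 ratios. Of 483 such forms in 122 arms, 186 (38.5%) stood above their reference form by 2-fold or more and 101 (20.9%) stood as far below it. Of the 340 shorter forms, 163 were above and 60 below, with a median difference of 0.90. Of the 143 longer forms, 23 were above and 41 below, with a median of -0.30. A form lacking 1 base at its 3′ end was above in 44 and below in 14 of 104 arms, and one with 1 base more was above in 13 and below in 20 of 77. The shortest forms differed most: of 102 forms of 16 to 18 nt, 68 were above and 19 below, with a median of 2.43, while the 238 shorter forms of 19 nt or more had 95 above and 41 below and a median of 0.58. Among forms with at least 100 untreated reads, 114 of 265 shorter forms were above and 51 below, and 17 of 128 longer forms were above and 36 below. Under this rule 39 of 63 forms of 16 to 18 nt were above and 13 below, with a median of 1.94. Of the shorter forms of 19 nt or more, 75 of 202 were above and 38 below, with a median of 0.51. With the reference form chosen by the reads of both libraries, 143 of 334 shorter forms were above and 74 below, and the median difference was 0.59.

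**Figure D3:**
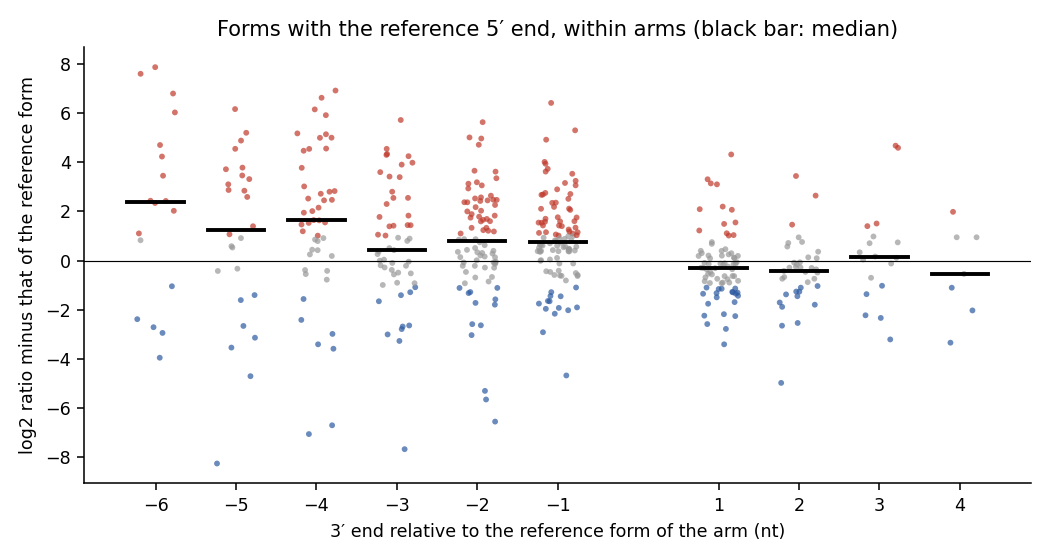
Difference in log2 ratio between a form and the reference form of its arm (vertical axis) against the position of its 3′ end relative to that form in nt (horizontal axis), for forms with the reference 5′ end, coloured by the 2-fold threshold, with a black bar at each median. The median is 0.76 for forms lacking 1 base and 1.63 for forms lacking 4, and it is -0.30 for forms with 1 more base and -0.42 for forms with 2 more, with points on both sides at each position shown.

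In most arms the isoforms differed from each other. Of the 122 arms with 2 or more sequences at the reference 5′ end, all sequences were higher in 13 and all were lower in 23. In 34 arms at least 1 form was higher while another was lower, and this held in 20 of the 104 arms with 2 or more forms of at least 100 untreated reads. The highest and lowest forms differed by at least 4-fold in 90 of the 122 arms. The most abundant form with the reference 5′ end changed in 36 of the 122, to a shorter form in 27 and to a longer one in 9. With forms of at least 100 untreated reads alone it changed in 31 of 104 arms, to a shorter form in 24 and to a longer one in 7. Among 455 pairs of forms that differ by 1 base at the 3′ end, the longer form was above the shorter by 2-fold or more in 80 (17.6%) and below it in 157 (34.5%). Where both forms had at least 100 untreated reads, it was above in 64 of 372 and below in 113. Over all pairs the median step was -0.17 for an added A, -0.48 for G, -0.55 for T and -0.63 for C. There were 110 arms with 2 or more forms at the reference 5′ end and at least 1000 reads in the arm. In 12 of these arms, forms with at least 1000 reads together lay past 2-fold on either side. The 12 arms were miR-8-3p, miR-14-3p, bantam-3p, miR-999-3p, miR-263a-5p, miR-305-5p, miR-285-5p, miR-125-5p, miR-306-5p, miR-34-3p, miR-981-5p and miR-932-3p.

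The forms of 4 arms that carry these changes are set out with the bases that are not shared by all shown forms of an arm in capitals.

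miR-263a-5p, 19 nt: aatggcactggaagaattc
miR-263a-5p, 22 nt: aatggcactggaagaattcACG
miR-263a-5p, 23 nt: aatggcactggaagaattcACGG
miR-263a-5p, 24 nt: aatggcactggaagaattcACGGG
miR-263a-5p, 27 nt: aatggcactggaagaattcACGGGGTA
miR-125-5p, 20 nt: tccctgagaccctaacttgt
miR-125-5p, 21 nt: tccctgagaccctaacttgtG
miR-125-5p, 22 nt: tccctgagaccctaacttgtGA
miR-125-5p, 24 nt: tccctgagaccctaacttgtGACT
bantam-3p, 17 nt: tgagatcattttgaaag
bantam-3p, 18 nt: tgagatcattttgaaagC
bantam-3p, 23 nt: tgagatcattttgaaagCTGATT
miR-305-5p, 21 nt: attgtacttcatcaggtgctc
miR-305-5p, 24 nt: attgtacttcatcaggtgctcTGG

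miR-263a-5p, the product of the bereft locus that protects sensory bristle cells in flies, had the widest spread of any arm, 8.99 on the log2 scale between its 19-nt and 27-nt forms. The 27-nt form passed the rule through the oxidized library, so the size of this spread rests on a scarce form. The spread of bantam-3p was 8.21. Its 24-nt form had 181521 reads without and 5047407 with oxidation, which is 39.8-fold higher in RPM (log2 5.32, 5.31 to 5.32). The 23-nt form had 57694 and 1042041 reads (log2 4.69, 4.68 to 4.71). Forms longer than the reference were also higher, with log2 ratios of 5.07, 5.88 and 6.05 at 25, 26 and 27 nt, the last on 3 untreated reads and 139 oxidized reads (4.48 to 8.35). Forms ending further inside were within 2-fold or lower. The 22-nt form, 1 base short of the 23-nt one, had 12065 and 6677 reads and a log2 ratio of -0.33 (-0.38 to -0.29). The 21-nt form had 7589 and 1036 reads (log2 -2.35), the 20-nt form 1259 and 263 (log2 -1.74), and the 19-nt form 4169 and 380 (log2 -2.94). Forms of 16, 17 and 18 nt were again higher, with log2 ratios of 2.51, 3.52 and 2.60, the first on 36 untreated reads. All of these share the same 5′ end. The partner arm miR-263a-3p had its highest ratio in its shortest form and its lowest in its longest. The 20-nt form had 75 and 1518 reads (log2 4.86), the 21-nt form 194 and 506 (log2 1.90), and the 22-nt form 1158 and 475 (log2 -0.77).

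miR-125-5p, one of the let-7 complex miRNAs that act in late development and in the adult fly, was held after oxidation mostly by 1 isoform. Its 21-nt form had 5615 reads without and 70262 with oxidation, which is 17.9-fold higher (log2 4.16, 4.13 to 4.20), and its share of the arm went from 27.4% to 87.3%. The 22-nt form, the most abundant one without oxidation, had 7330 and 5695 reads (log2 0.15, 0.10 to 0.20). All 5 forms of 23 to 27 nt were lower, with log2 ratios from -1.60 at 23 nt to -2.81 at 27 nt. The 24-nt form had 3772 and 504 reads (log2 -2.38). The 20-nt form, with 1403 and 1374 reads, was at 0.49, and the 17 to 19 nt forms were higher, at 3.02, 2.67 and 2.70. Of these, the 18-nt form had only 20 untreated reads and passed the rule through the oxidized library. The mean read length of the arm changed by -1.04 nt.

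Of the other arms of the let-7 complex, let-7-5p, the heterochronic miRNA conserved across animals, had 50185 and 8769 reads in its 21-nt form, 3.99-fold lower, and its 20-nt and 22-nt forms lay at -2.59 and -2.54. The 19-nt form stood apart at 0.26 (0.20 to 0.32), with 5585 and 4667 reads, and went from 5.95% to 25.2% of the arm. The 18-nt form next to it was at -3.08. miR-100-5p had 3 forms whose ratio went down as they lengthened, at 2.11 for 20 nt (1822 and 5494 reads), 0.61 for 21 nt and -0.54 for 22 nt.

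bantam-3p, a miRNA that promotes growth and blocks apoptosis in flies, was lower after oxidation in its abundant forms, with log2 ratios of -2.12, -2.61, -3.94 and -4.30 at 21, 22, 23 and 24 nt. The 23-nt form had 746919 and 33848 reads, and the 22-nt form, with 488663 and 55925, replaced it as the most abundant. At the short end 2 neighbouring forms went opposite ways. The 17-nt form had 330 and 3474 reads and was 15.1-fold higher (log2 3.91, 3.75 to 4.08). The 18-nt form, with a single C more, had 10114 and 959 reads and was 7.36-fold lower (log2 -2.88, -2.98 to -2.78).

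miR-305-5p, known for a role in intestinal stem cell homeostasis in flies, had its highest ratio in a longer form. Its forms of 19 to 22 nt had log2 ratios between -3.43 and -2.71, with 36016 and 2330 reads for the 21-nt form. The 24-nt form had 1407 and 2316 reads (log2 1.24, 1.14 to 1.33), and its share of the arm went from 2.13% to 30.0%. The 25-nt form was back at -2.49. On the opposite arm of the hairpin, miR-305-3p, the ratio went down with length over 6 forms, from 3.63 at 19 nt through 2.10, 0.81, 0.21 and -0.078 to -0.46 at 24 nt. The 18-nt form, with 282 and 19 reads, was at -3.37.

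**Figure D4:**
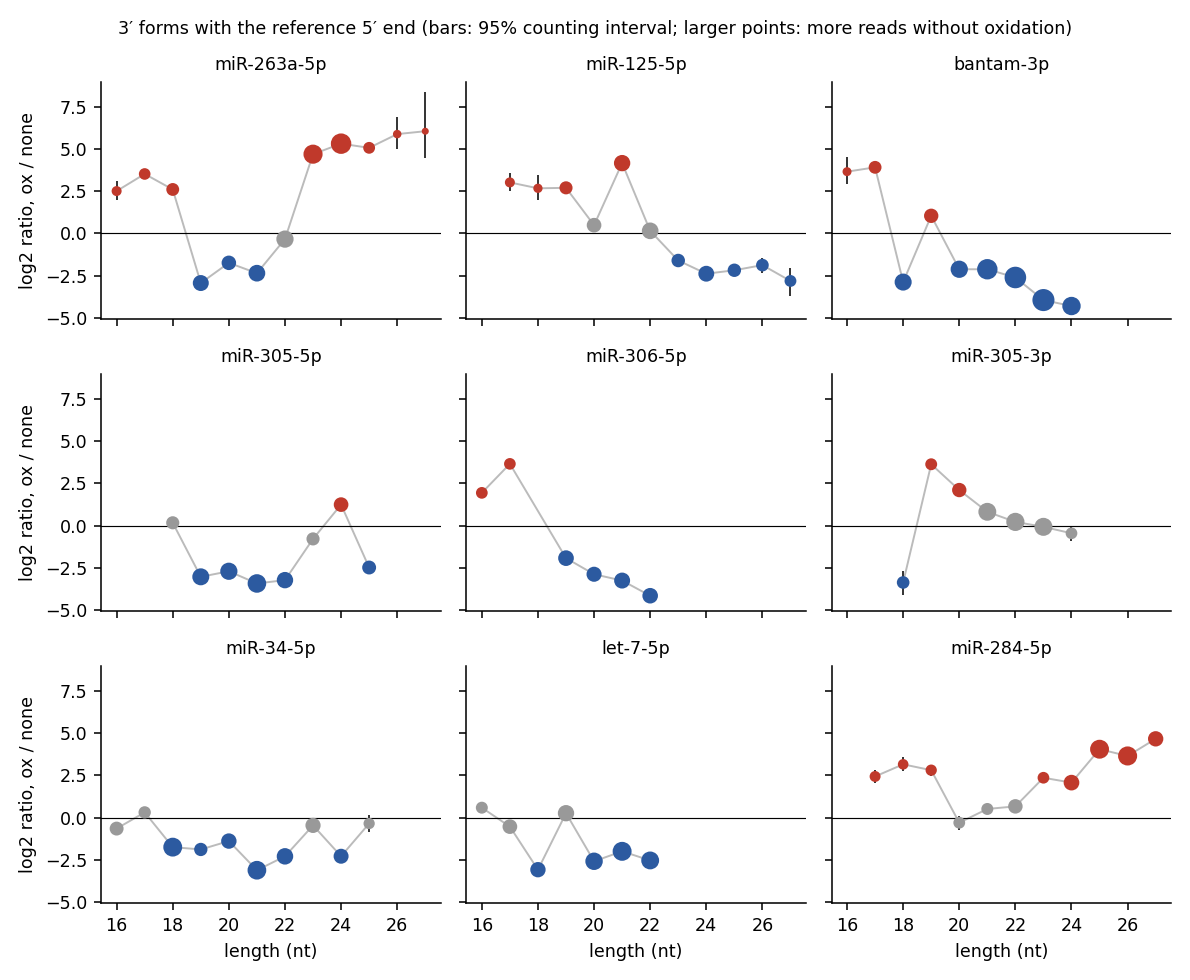
Log2 ratio of oxidized over untreated RPM (vertical axis) against length in nt (horizontal axis) for the forms of 9 arms that share the reference 5′ end. Bars are 95% counting intervals, larger points have more untreated reads, and red and blue mark forms at least 2-fold higher and lower. miR-263a-5p steps from -0.33 at 22 nt to 4.69 at 23 nt, and miR-125-5p from 4.16 at 21 nt to 0.15 at 22 nt.

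In miR-275-5p, miR-981-5p, miR-932-3p and miR-285-5p a form ending in C or G was higher, while the form with 1 more T or A was lower or within 2-fold. The forms of 2 such arms are shown, with the bases not shared in capitals, and for miR-981-5p a form that begins 1 base earlier is added.

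miR-275-5p, 22 nt: cgcgctaatcagtgaccggggc
miR-275-5p, 23 nt: cgcgctaatcagtgaccggggcT
miR-981-5p, 21 nt: cgggtttcgttagcagcgggc
miR-981-5p, 22 nt: cgggtttcgttagcagcgggcT
miR-981-5p, 22 nt, starting 1 nt earlier: Tcgggtttcgttagcagcgggc

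For miR-275-5p the 22-nt form had 618 and 10076 reads (log2 4.55, 4.43 to 4.67) and the 23-nt form 2342 and 974 (log2 -0.75, -0.86 to -0.64). The shorter form thus went from 20.9% to 91.2% of the arm. For miR-981-5p the 21-nt form had 548 and 5818 reads (log2 3.93, 3.80 to 4.06), and the 22-nt form 5083 and 636 (log2 -2.48, -2.60 to -2.36). The other 22-nt form, which ends where the 21-nt form does, had 104 and 2742 reads (log2 5.24, 4.96 to 5.54). For miR-932-3p the 21-nt form was 3.49-fold higher and the 22-nt form 2.70-fold lower. miR-285-5p had 4680 and 20377 reads at 22 nt (log2 2.64), 12634 and 3601 at 23 nt (log2 -1.29) and 164 and 928 at 24 nt (log2 3.02). Over all 455 pairs the longer form was below the shorter in the median for each added base, and these arms were picked by their opposite forms or their shift in length.

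miR-306-5p and miR-34-3p had the largest shifts to shorter reads. miR-306-5p had forms of 19, 20, 21 and 22 nt at -1.93, -2.89, -3.26 and -4.16, so that the ratio went down with each added base. Its 16-nt and 17-nt forms were at 1.93 and 3.65, and the 17-nt form, with 132 and 1157 reads, became the most abundant one, going from 1.05% to 42.5% of the arm. The mean read length of miR-306-5p was 20.5 nt without and 18.2 nt with oxidation (-2.30 ± 0.036 nt, counting SE). miR-34-3p went from 22.5 to 20.4 nt (-2.10 ± 0.057): its 23-nt form had 7156 and 791 reads (log2 -2.66) and its 18-nt form 539 and 780 (log2 1.05). Of the 112 arms with 2 or more sequences and at least 1000 reads, 21 were at least 0.5 nt shorter on average after oxidation and 6 at least 0.5 nt longer. The next shortened arms were miR-263a-3p, miR-9c-5p, miR-125-5p, miR-9a-5p, miR-306-3p, miR-281-3p, miR-316-5p and miR-275-5p, with shifts from -1.18 to -0.70 nt. The lengthened ones were miR-263b-5p (1.48 nt), miR-193-3p (0.83), miR-305-5p (0.82), miR-9a-3p (0.76), miR-219-5p (0.62) and miR-283-5p (0.57), followed by 2 arms without a name and by miR-263a-5p and miR-11-3p, which gained 0.33 nt each. With every form that had a read counted, 26 arms were shorter and 5 longer by 0.5 nt, and the shift of miR-219-5p was 0.132 nt. In miR-263b-5p the 23-nt form had 273 and 2627 reads (log2 3.79) while the forms of 19 and 21 nt were at -2.91 and -2.76.

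**Figure D5:**
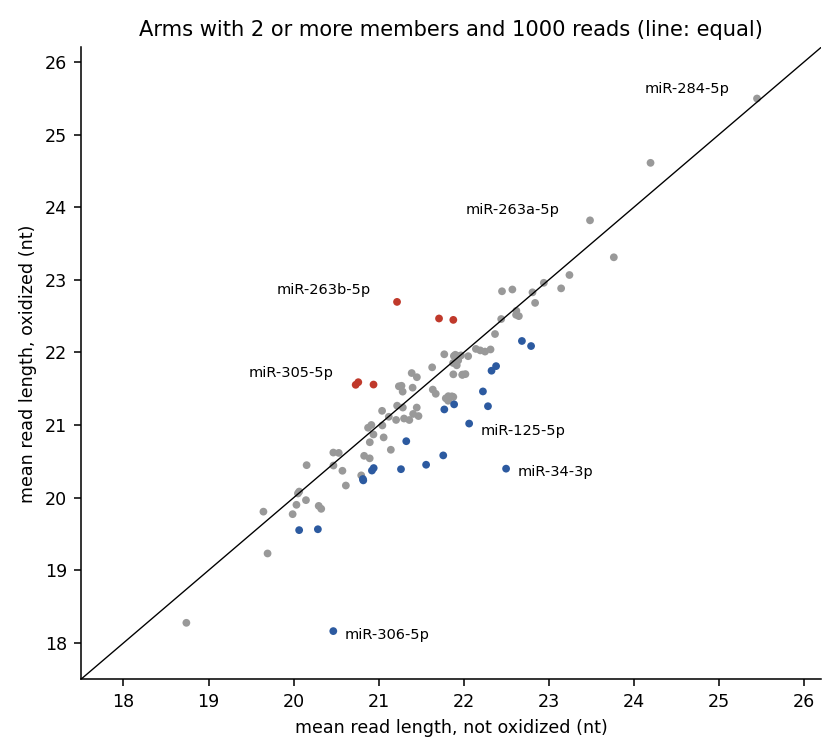
Mean read length in nt without oxidation (horizontal axis) and with it (vertical axis) for the 112 arms with 2 or more sequences and at least 1000 reads in the 30-day libraries, 1 point per arm, with the line of equality. Blue marks the 21 arms at least 0.5 nt shorter and red the 6 arms at least 0.5 nt longer, and miR-306-5p lies furthest below the line at 20.5 and 18.2 nt.

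miR-34-5p, studied for its part in ageing of the fly brain, has a reference form of 18 nt in these old heads. That form had 46751 reads without and 9704 with oxidation (log2 -1.75, -1.78 to -1.72). The 21-nt form was the other abundant one, with 40692 and 3273 reads, and was lower still (log2 -3.12, -3.17 to -3.07). The 23-nt form, with 2207 and 1118 reads, was at -0.46 (-0.57 to -0.36), which is 1.29 above the reference form, while the 22-nt and 24-nt forms were both at -2.29. All 10 forms with the reference 5′ end were within 2-fold or lower. Abundant forms from the neighbouring hairpins were lower too. miR-277-3p, which regulates branched-chain amino acid breakdown in flies, had 360162 and 106769 reads in its 22-nt form (log2 -1.24), and its forms of 20 and 21 nt were at -2.35 and -2.33. miR-317-3p held 3 of the 10 lowest ratios among sequences with at least 1000 reads at its usual 5′ end, at 21 nt (629994 and 21678 reads, log2 -4.34), 23 nt (-4.25) and 24 nt (352605 and 11141 reads, log2 -4.47). Even there the shortest forms differed, with 0.20, 0.65 and 1.81 at 18, 17 and 16 nt, the last on 77 untreated reads.

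Among the other lowest sequences were the 24-nt form of bantam-3p (-4.30), the 22-nt forms of miR-284-3p (-4.37) and miR-306-5p (-4.16), the 21-nt form of miR-307a-3p (-4.22) and the 23-nt form of miR-210-3p (-4.05). The remaining 2 were 16-nt fragments that lack 5′ bases, from miR-317-3p (-4.46) and miR-8-3p (-4.07). The highest ratio among sequences with at least 1000 reads was that of the 22-nt form of miR-315-3p, with 1117 and 34397 reads (log2 5.46, 5.38 to 5.55). The other highest were 3 forms of miR-263a-5p and 1 of miR-263a-3p, the forms of miR-981-5p and miR-193-5p with a shifted start, and single forms of miR-252-5p, miR-998-5p and miR-995-3p. miR-252-5p had its highest ratio at 20 nt (1299 and 27864 reads, log2 4.94), although its more abundant 21-nt and 22-nt forms were also higher, at 2.80 and 2.92. miR-998-5p was higher in all forms of 19 nt or more, with 302 and 6052 reads at 21 nt (log2 4.84) and a log2 ratio of 4.03 at 22 nt.

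The main forms of abundant arms lay on both sides. In the untreated library the most abundant sequence was the 20-nt form of miR-14-3p, a miRNA linked to cell survival and fat metabolism in flies, with 2470947 reads against 137137 after oxidation (log2 -3.65). The 23-nt form of miR-8-3p, the fly member of the miR-200 family, had 2281994 and 387853 reads (log2 -2.04), and its 21-nt form was at -1.69. The 22-nt forms of miR-276a-3p, miR-276b-3p and miR-999-3p were at -3.16, -3.88 and -3.26. Reads of miR-276a-3p and miR-276b-3p, which are near-identical, may be exchanged by a sequencing error. In these arms except miR-276b-3p, which had no sequence that short, the 16-nt form with the reference 5′ end was above 0. It was at 1.48 for miR-14-3p, 1.59 for miR-8-3p, 1.54 for miR-276a-3p and 4.33 for miR-999-3p, on 220, 80, 79 and 1281 oxidized reads. The form of miR-14-3p had 113 untreated reads, while the others had under 100 and passed the rule through the oxidized library. Fragments of 16 nt that start later were below 0 in the same 4 arms, from -0.53 and -4.07 in miR-8-3p to -1.05 in miR-14-3p, -2.68 in miR-276a-3p and -4.55 in miR-999-3p. This did not hold in every abundant arm, since such fragments were at 0.65 and 1.16 in miR-210-3p and at 3.95 in miR-263a-5p. On the other side, the 21-nt form of miR-33-5p, which lies within the fly SREBP gene, had 339154 and 692009 reads (log2 1.55) while its 22-nt form was at -0.71. miR-284-5p, whose forms are unusually long, had 48591 and 561143 reads at 25 nt (log2 4.05), 55346 and 484527 at 26 nt (3.65) and 2475 and 43766 at 27 nt (4.66), against -0.30, 0.51 and 0.66 at 20, 21 and 22 nt, and its most abundant form went from 26 to 25 nt. miR-927-5p was at 3.89 at 22 nt with 57912 and 598882 reads. miR-11-3p was divided among its abundant forms, at -1.61, -2.31 and -0.28 for 20, 21 and 22 nt, and its 22-nt form went from 47.7% to 75.3% of the arm.

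Of the 12 groups of named arms with a shared seed, 3 are described. The seed AGCACCA is common to miR-995-3p, miR-998-3p and miR-285-3p. miR-995-3p was higher in each of its 3 forms and more so the shorter they were, with 86870 and 275841 reads at 21 nt (log2 2.19), 6608 and 56245 at 20 nt (log2 3.61) and 630 and 11497 at 19 nt (log2 4.71). The single form of miR-998-3p, 21 nt, was at 2.12. miR-285-3p was at 0.49 at 21 nt, but at -1.70 at 22 nt and -2.15 at 19 nt. The seed CTTTGGT of the miR-9 family, whose best known fly member miR-9a acts in sense organ precursors, is shared by miR-9a-5p, miR-9b-5p and miR-9c-5p. Their 22-nt forms were at -2.21, -3.78 and -3.64. The 20-nt forms were divided, at 0.55 for miR-9a-5p (2227 and 2277 reads), -3.91 for miR-9b-5p (108 and 5 reads) and 1.32 for miR-9c-5p (92 and 160 reads). miR-276a-3p and miR-276b-3p were close at each shared length, with -0.59 and -0.70 at 20 nt, -2.69 and -3.08 at 21 nt, -3.16 and -3.88 at 22 nt, and -3.33 and -3.99 at 23 nt.

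The 5′ end also varied. There were 252 sequences in 64 arms that begin before or after the reference form. Of the 239 with a counterpart that has the reference 5′ end and the same 3′ end, 94 lay within 2-fold of it, 85 (35.6%) stood above it by 2-fold or more and 60 (25.1%) as far below. For the 202 variants that also had a counterpart of equal length, the absolute difference had a median of 1.46 from the form with the same 3′ end and 1.84 from the form of the same length, and 78 and 57 variants lay within 2-fold. Among variants with at least 100 untreated reads 42 of 147 stood above and 38 below the form with the same 3′ end, nearly even, and the median absolute differences were 1.16 and 1.69, with 56 and 39 of 123 within 2-fold. The variants starting 1 nt late were above their counterpart with the same 3′ end in 41 and below in 11 of 81 cases, and in 23 and 7 of 51 with at least 100 untreated reads.

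Some shifted forms differed widely from their neighbours, as in miR-193-5p and miR-210-3p, shown with the bases not shared in capitals.

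miR-193-5p, 22 nt: GGttgggattttttagatcagc
miR-193-5p, 21 nt, starting 1 nt later: Gttgggattttttagatcagc
miR-193-5p, 20 nt, starting 2 nt later: ttgggattttttagatcagc
miR-210-3p, 21 nt: Cttgtgcgtgtgacagcggct
miR-210-3p, 20 nt, starting 1 nt later: ttgtgcgtgtgacagcggct

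The 3 forms of miR-193-5p end at the same base. The 22-nt form had 7006 and 997 reads (log2 -2.29), the 21-nt form 258 and 5267 (log2 4.87, 4.69 to 5.06), and the 20-nt form 4057 and 192 (log2 -3.88). The 21-nt form thus went from 1.92% to 79.0% of the arm. miR-210-3p had 898381 and 52244 reads in its reference form (log2 -3.59) and 208874 and 45950 in the form that lacks the first C (log2 -1.67), which went from 17.1% to 34.3% of the arm. In miR-14-3p the 22-nt form that starts 1 nt late had 209 and 2350 reads (log2 4.01, 3.81 to 4.22), while the 19-nt form with the same start was at 1.36. The largest distance of a shifted form from its reference form was in an arm without a name, where a 20-nt form starting 2 nt late had 11 and 454 reads (log2 5.89) and the 21-nt reference form 3018 and 252 (log2 -3.06). It was followed by miR-981-5p, miR-14-3p, bantam-3p and miR-193-5p. In bantam-3p it was a 20-nt form starting 1 nt late, with 19 and 134 reads (log2 3.34). The shifted forms of the unnamed arm and of bantam-3p had under 100 untreated reads and passed the rule through the oxidized library. Those of miR-981-5p, miR-14-3p and miR-193-5p had at least 100 untreated reads.

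The same sequences were set beside the 3-day libraries, which share no library with the 30-day pair. At 3 days, 693 of the 929 sequences had at least 100 reads in both libraries together, and 192 (27.7%) of these were higher and 340 (49.1%) lower. These 693 held 155 of the 284 sequences higher at 30 days and 395 of the 455 lower ones, so fewer of the higher ones could be compared. Of the 155 that were higher at 30 days, 150 were also higher at 3 days and 0 were lower. Of the 395 that were lower at 30 days, 325 were also lower at 3 days and 3 were higher. Within arms, 380 forms could be compared with their reference form at both ages. At 30 days 132 of them stood above it by 2-fold or more and at 3 days 112 (29.5%) did, with 94 in common. Below it were 81 and 77 (20.3%), with 54 in common. The 21-nt and 24-nt forms of miR-125-5p were at 3.71 and -1.16 at 3 days, the 24-nt and 19-nt forms of miR-263a-5p at 5.70 and -1.75, and the 17-nt and 18-nt forms of bantam-3p at 4.60 and -1.57. No test of an age difference is possible with 1 library each.

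The libraries held 17345816 untreated and 12105527 oxidized reads at 30 days, and 16112748 and 2091252 at 3 days. A count of 0 at 30 days allows up to 0.173 RPM without and 0.248 RPM with oxidation. The 4 neural arms looked for in a head, miR-124-3p, miR-210-3p, miR-276a-3p and miR-137-3p, were all present, with levels from 101 RPM (miR-137-3p) to 81884 RPM (miR-276a-3p) untreated. Their sum was 153464 RPM untreated and 23348 RPM oxidized. Of 2 muscle arms miR-133-3p was named, at 7024 and 1072 RPM. None of 6 testis arms was named, and 3 of 9 arms of embryo and ovary were, at 47.5 and 29.3 RPM in all. The untreated levels come from bulk heads, where fewer cells of a type and less RNA per cell cannot be told apart.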

How the data were processed

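The authors deposited, for each library, a table of raw counts without a header, in which each line holds a read sequence and its number of reads. Libraries were made with Illumina's TruSeq small RNA kit, per the labels' protocols. Per the submitters' processing notes, CASAVA 1.8.2 and Bowtie were used with dm3. The sources used here do not give how adapters were trimmed, and any filter on mapped or annotated reads before deposit shapes which forms can be seen.

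Between 65 and 165 sequences per table stood on more than 1 line, always with an equal count, and were counted once. Counts were scaled to RPM of the table's sum. Sequences of up to 30 nt were placed in an arm when they overlapped it exactly by 15 nt or more and the arm spanned no more than 34 nt, and 24 of the 929 that fitted more than 1 arm were left out within arms. Of 134 names, 101 were recalled and 33 given by pairing. As a check, in 9 of 10 hairpins with both arms recalled these were each other's best partner among 170 arms by duplex energy (ViennaRNA 2.7.2). The reference form had the annotated length in 56.7% of named arms and was within 1 nt of it in 79.9%. Loci come from the Ensembl BDGP6 annotation, another build than dm3, by gene name.

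Ratios carry 95% intervals (exact Clopper-Pearson, given the sum of both counts), and the SE of a shift in mean length comes from the spread of read lengths. A count of 0 was set to 3 counts. The size threshold was 2-fold. Single sequences named in the text are the 10 highest and 10 lowest with at least 1000 reads and the 10 most abundant of each library. Arms named are those with the widest spread (10), opposite forms, the largest shifts in mean length (10 each way), the most reads (10), the largest 5′ differences (5) and a list of 8 miRNAs, and forms in these arms. miR-927-5p, miR-252-5p, miR-998-5p and miR-995-3p enter through single sequences, and miR-998-3p, miR-285-3p, miR-9b-5p and miR-275-3p through a shared seed. miR-957-3p is named because it alone lacked oxidized reads. The sequences, the lists and the rule were chosen with earlier results of these data known. Alternatives were other scalings (edgeR 4.0.16 TMM, median of ratios, totals without miR-263a-5p), other read minimums, repeats summed, a 4-fold threshold and another reference form. The ratio and grouping code was tested on simulated data. Python 3.11.15, pandas 2.3.3 and scipy 1.17.1 were used.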

Additional observations from a re-analysis of the deposited data

Results flagged for a closer look

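Oxidation ratios of opposite sign at 30 and 3 days, with counting intervals on either side of 0, were looked for in the named sequences and in the more abundant forms of the named arms. With 3 sequences past 2-fold in opposite directions, 18 sequences and 2 within-arm differences are given. The difference between the ages was not tested, since each rests on 1 library, and the ratios of each age are relative to its own totals. Most of these signs depend on that scaling. With miR-263a-5p out of all totals the log2 ratios were 0.99 higher at 30 days and 0.54 higher at 3 days, and 10 of the 18 sequences no longer had opposite signs. The 8 that did were the 18-nt form of miR-34-5p, the 19-nt form of miR-14-3p, the 23-nt form of miR-285-5p, the late-starting fragment of miR-8-3p and the form of miR-311-3p, and, with 1 interval that includes 0, those of miR-9a-5p, miR-1000-5p and miR-318-3p. The 2 within-arm differences do not depend on the scaling. For sequences with at least 1000 reads together at each age in the arms described above, the log2 ratios at 30 and 3 days were as follows. miR-34-5p at 18 nt had -1.75 and 0.31, and miR-14-3p at 19 nt -2.55 and 0.28. miR-285-5p at 23 nt had -1.29 and 0.78, miR-275-5p at 23 nt -0.75 and 2.37, and miR-33-5p at 22 nt -0.71 and 0.39. miR-8-3p at 19 nt had -0.49 and 0.19, miR-283-5p at 23 nt -0.39 and 0.33, and miR-11-3p -0.28 and 0.11 at 22 nt. miR-999-3p at 21 nt had -0.20 and 0.68, and miR-305-3p at 23 nt -0.078 and 1.38. The sign was the other way round for miR-11-3p at 23 nt (0.82 and -0.44), miR-9a-5p at 20 nt (0.55 and -0.65), let-7-5p at 19 nt (0.26 and -0.32) and the 22-nt form of an arm without a name (0.24 and -0.27).

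The 16-nt fragment of miR-8-3p that starts 7 nt late had -4.07 at 30 days, on 7249 and 301 reads, and 0.48 at 3 days, on 299 and 54. Past 2-fold in opposite directions at 30 and 3 days were 3 further sequences, named here for that reason: miR-1000-5p at 18 nt (-1.04 and 1.54), miR-318-3p at 21 nt (-1.12 and 1.43) and miR-311-3p at 22 nt (-1.87 and 1.49), the last with 22 oxidized reads at 30 days and 38 at 3 days. Relative to the reference form of its arm, the 23-nt form of miR-34-5p was 1.29 above at 30 days and lay at -1.75 at 3 days, and the 23-nt form of miR-219-5p was at 1.503 and -1.23. Reference forms were chosen in the untreated 30-day library. That of miR-34-5p, at 18 nt, itself had log2 ratios of -1.75 at 30 days and 0.31 at 3 days, so the change lies partly in the reference form.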

How the results depend on the processing

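With TMM or median-of-ratios scaling the counts of higher and lower sequences stayed within 1.5 times, and none of the 34 named single sequences past 2-fold changed sign under any of the 3 scalings. With miR-263a-5p out of the totals, 1 of them, the 21-nt form of miR-8-3p, came within 2-fold. Read minimums changed the counts most. With at least 500 reads together, 125 sequences were higher and 276 lower. With 100 reads in the untreated library alone 117 were higher. With no minimum 2162 were higher and 1315 lower, of 4893. Only 2531 of these had a read in both libraries, and an absent count was set to 3. A sequence with under 3 untreated reads and none after oxidation thus counted as higher. This split therefore does not give the direction of scarce sequences. For median log2 ratios relative to all sequences, at least 500 reads moved 23 nt to -0.28, first base C to 3.29 and first base T to -0.70, and 100 untreated reads moved first base G to 0.86 and first base T to -0.44. Within arms, at least 500 reads left 88 shorter forms above and 36 below their reference form, 20 longer forms below, and a median difference of 0.60 for shorter forms, against 0.59 with the reference form chosen by both libraries. Without miR-263a-5p the shares of reads, untreated and oxidized, were 20.1% and 7.71% at 20 nt, 21.7% and 27.2% at 21 nt, 29.6% and 30.6% at 22 nt, 2.82% and 0.630% at 24 nt, 0.350% and 9.42% at 25 nt, and 0.367% and 8.10% at 26 nt, and the oxidized share at 23 nt was 12.4%. Summed repeats and a 4-fold threshold, with 202 higher and 336 lower, kept the counts within 1.5 times. No paired analysis was possible because each group holds 1 library. Depth limits the scarce forms: ratios resting on a few reads, such as the 27-nt form of miR-263a-5p, have wide intervals.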

Other observations

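Single-base steps past 2-fold also occurred in other arms, picked here after their values were seen. Most of those picked were steps up with the added base, while over all 455 pairs 80 steps were up and 157 down. In miR-284-3p the 21-nt form was at a log2 ratio of 0.54 and the 22-nt form at -4.37. In miR-10-5p, whose hairpin lies in the Hox cluster, the 20-nt form was at -0.43 and the 21-nt form at 2.16. In miR-92b-3p the 21-nt and 22-nt forms were at -1.98 and 0.94, in miR-988-3p at -0.12 and 2.07, and in miR-1000-5p the 20-nt and 21-nt forms were at -3.52 and -1.43.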
